A study of Mus musculus with 4 samples.

Results

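Amino acids enter and leave muscle fibers through membrane proteins of the solute carrier (SLC) superfamily, and the genes described here are those of 7 of its families, SLC1, SLC3, SLC6, SLC7, SLC36, SLC38 and SLC43. Members were chosen by their symbols alone (Slc1a, Slc3a, Slc6a, Slc7a, Slc36a, Slc38a or Slc43a followed by a number), and 64 of the 22180 genes measured matched. Of the 64, the symbols of 3 (Slc7a6os, Slc36a1os and Slc6a19os) name genes on the strand opposite to a transporter gene. Slc6a9 was left out because its probe set also names another gene. The study asked whether PDK1, a kinase of the PI3K pathway encoded by Pdpk1, is needed when a muscle grows under mechanical load. Affymetrix Mouse Gene 2.0 ST arrays measured RNA from plantaris muscles of males, taken 10 days after an operation, with 1 array for each of 4 conditions. The surgery was synergist ablation, in which the gastrocnemius and soleus of both legs are removed so that the plantaris carries their load, or a sham operation. M-PDK1KO mice were flox/flox for the PDK1 gene and carried Cre under the myosin light chain 1f promoter. Control mice, which the labels call wild type, were flox/flox without Cre, so that both groups carried the floxed allele. Neither the age of the mice on the arrays nor whether an array holds 1 mouse or a pool is given in the sources used here.

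The SLC1, SLC6 and SLC38 proteins couple amino acid uptake to the entry of sodium, SLC36 proteins couple it to protons, and SLC43 proteins let amino acids pass down their gradient. Many SLC7 proteins are light chains that reach the membrane only when joined to an SLC3 heavy chain, and they exchange one amino acid for another. In muscle, leucine brought in by such exchangers activates the kinase complex mTORC1, and glutamine is moved by SLC38 proteins.

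A skeletal muscle gene had high values on all arrays, which does not tell plantaris from other muscles. Acta1 (skeletal muscle actin) had log2 values of 12.70 and 12.67 in M-PDK1KO mice after ablation and sham surgery, and 12.65 and 12.66 in control mice. Pdpk1 had log2 values of 6.23 after ablation and 5.96 after sham surgery in M-PDK1KO mice, against 6.85 and 6.81 in control mice. Values are on a log2 scale per probe set, as read from the range of the deposited values, and the highest-mean probe set stood for each gene, so that levels of different genes cannot be compared. The median of all gene values was 3.23, and 28 of the 64 members were above it on at least 1 array, as were 12018 of all genes. Responses are given as log2(ablation/sham), per genotype. They could not be tested within a genotype with 1 array per condition. The mean response over both genotypes was tested with limma, with genotype and ablation as terms, and a gene was called where the p-value adjusted over all genes was under 0.05. This fit compares 2 ablation with 2 sham arrays on 1 residual degree of freedom. Its spread for a gene is the difference between the responses of the 2 genotypes, which limma draws toward a value shared by all genes. The SEs and p-values therefore do not measure variation between animals of a condition. A gene whose response differs between the genotypes is less readily called.

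Of the 64 members, 9 (14.1%) rose after ablation and 5 (7.81%) fell. Among all genes 10.4% were called higher and 10.6% lower, so that the share of members called was near that of all genes in both directions. Among the 28 members above the median of all genes on at least 1 array, 8 (28.6%) were called higher and 5 (17.9%) lower. For all genes so high, the shares were 18.2% and 19.1%. The difference in higher calls was not tested. The median mean response of the members was 0.00, against -0.02 for all genes. Calls in both directions occurred in SLC38 alone among the families. This family had 2 genes higher and 3 lower of 11, SLC1 had 3 higher of 7, SLC7 3 higher of 16, SLC3 1 higher of 2, SLC43 1 lower of 3 and SLC6 1 lower of 20, while no member of SLC36 (5 genes) was called. With each array centred on its median, 8 members were higher and 7 lower, and the share of higher calls was 38.3% over all genes instead of 49.5%. The calls of Slc38a1, Slc7a5, Slc7a1, Slc43a1, Slc38a4 and Slc38a3 held when any 1 array was left out and ablation was the only term. Those of the other 8 were lost without at least 1 array.

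**Figure D1:**
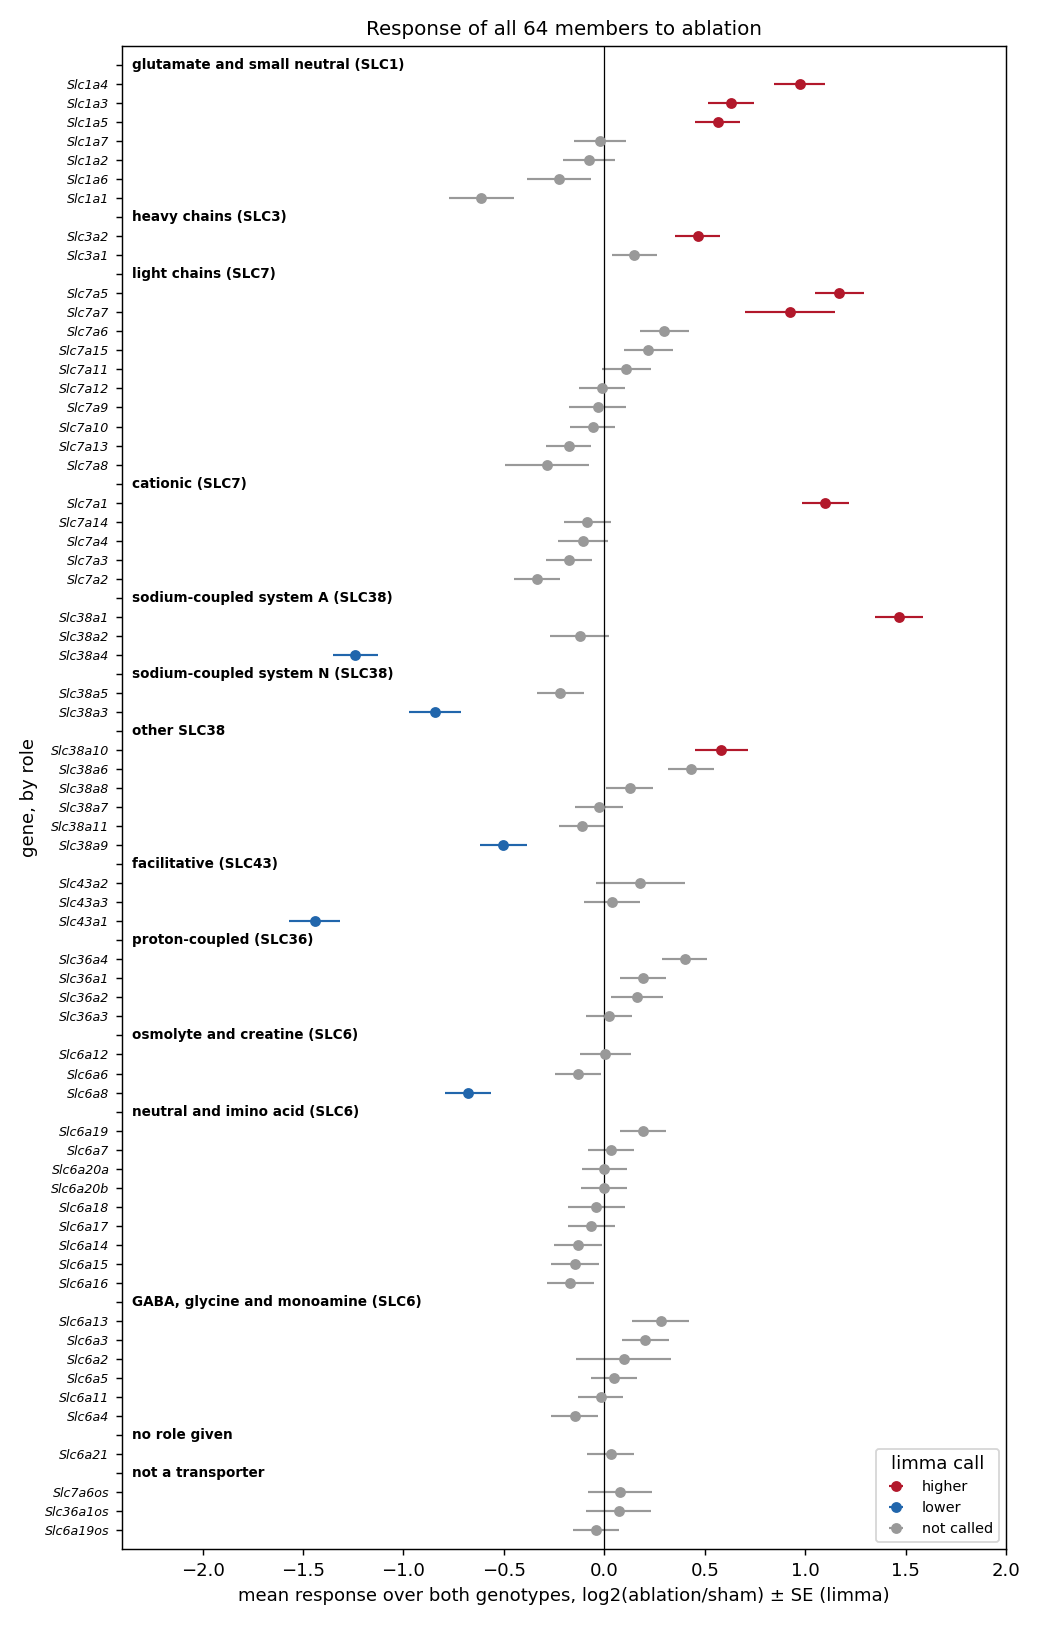
Mean response of each of the 64 members over both genotypes, as log2(ablation/sham) on the horizontal axis, grouped by role down the page. Points are limma estimates, bars are ± SE, and red, blue and grey stand for called higher, called lower and not called. The 9 red points lie between 0.46 and 1.47 and the 5 blue points between -1.44 and -0.50.

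In M-PDK1KO mice, 4 members were at least 2-fold higher after ablation (Slc38a1, Slc7a7, Slc7a1 and Slc7a5), against 4.77% of all genes. In control mice, 4 were also at least 2-fold higher (Slc38a1, Slc7a5, Slc1a4 and Slc7a1), against 4.49% of all genes. Only Slc43a1 and Slc38a4 were at most 0.5-fold, in both genotypes, where 2.71% of all genes were so low in M-PDK1KO and 2.54% in control mice. Just outside this limit was Slc38a3, at 0.502-fold in M-PDK1KO mice.

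**Figure D2:**
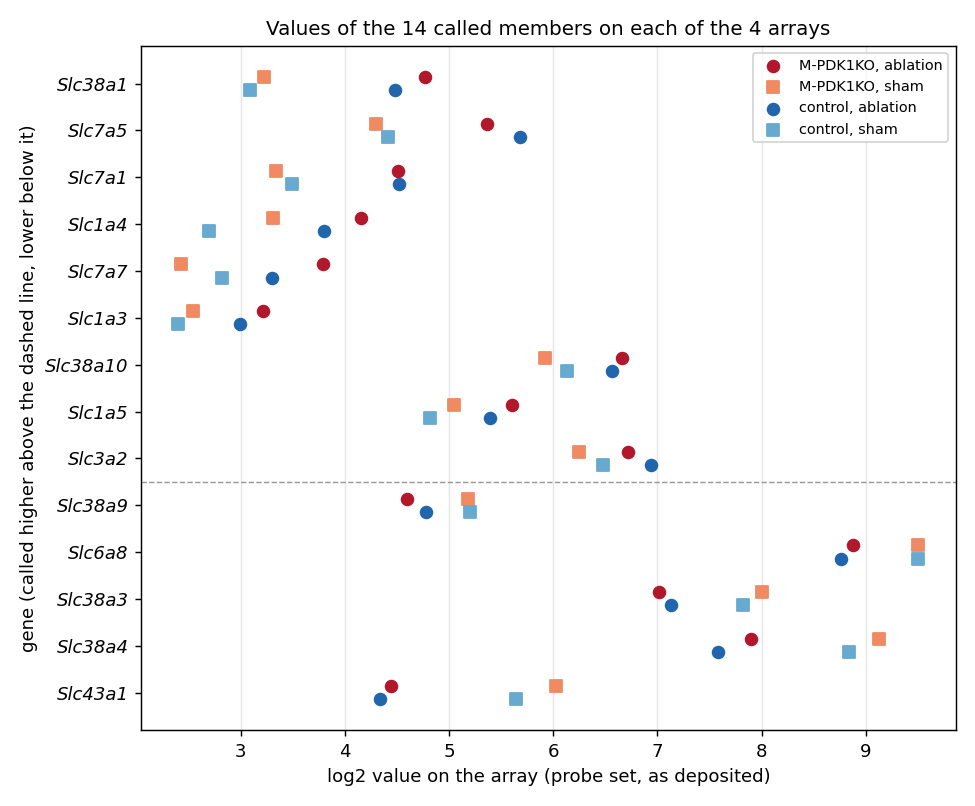
Log2 value of each of the 14 called members on each of the 4 arrays, with 1 gene per row, ordered by mean response. Circles are ablation and squares sham arrays, red and orange M-PDK1KO and blue shades control mice. In every row both circles lie on the same side of both squares, to the right for the 9 genes above the dashed line and to the left for the 5 below it. Calling favours rows in which the genotypes responded alike.

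The heterodimer of Slc3a2 and Slc7a5 was called higher for both chains. Slc7a5, which encodes LAT1, the light chain that brings in leucine and other large neutral amino acids, had log2 values of 5.37 after ablation and 4.30 after sham surgery in M-PDK1KO mice, and of 5.68 and 4.41 in control mice. Both ablation arrays were above both sham arrays, with a mean response of 1.17 ± 0.12 (limma SE, adjusted p = 0.0037). Slc3a2 encodes CD98, the heavy chain shared by most of the light chains. Its values were 6.72 and 6.24 in M-PDK1KO mice and 6.93 and 6.48 in control mice after ablation and sham surgery. This smaller rise of 0.46 ± 0.11 (adjusted p = 0.0429) was not called when any 1 array was left out (0.35 to 0.58, adjusted p from 0.078 to 0.257), nor with arrays centred on their medians. Slc7a7, the light chain y+LAT1, which exchanges cationic for neutral amino acids, had values of 3.79 and 2.43 in M-PDK1KO mice and of 3.30 and 2.82 in control mice. It rose by 0.93 ± 0.22 (adjusted p = 0.0423), and its call was lost without the ablation (0.68, adjusted p = 0.119) or the sham array (0.73, adjusted p = 0.101) of M-PDK1KO mice.

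Other light chains were not called. Slc7a6, the related y+LAT2, had a mean response of 0.30 ± 0.12 (adjusted p = 0.163), and its values were 5.29 and 4.89 in M-PDK1KO mice and 5.11 and 4.92 in control mice. Slc7a8, which encodes LAT2, another carrier of neutral amino acids, had 5.73 after ablation and 5.62 after sham surgery in M-PDK1KO mice, but 5.66 and 6.35 in control mice. Its sham array of control mice stood above the other 3 arrays, and the mean response was -0.29 ± 0.21 (adjusted p = 0.431). Without the sham array of M-PDK1KO mice it was called lower (-0.65, adjusted p = 0.0392). For Slc7a11, which encodes the cystine and glutamate exchanger xCT, all 4 values lay between 1.93 and 2.15, and a second probe set of the gene gave 1.83 to 1.93. The heavy chain of the cystine transporter of kidney, Slc3a1, and its partner Slc7a9 also stayed below the median of all genes on each array.

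Whole muscle holds cells other than fibers, and fewer cells of a type cannot be told apart from less RNA per cell in these arrays. Of 8 macrophage markers, 7 rose after ablation. Their summed linear values were 1855 in M-PDK1KO and 1751 in control mice after ablation, against 338 and 308 after sham surgery. Fibroblast markers rose in 6 of 7 cases, with sums of 13191 and 12592 after ablation, against 4140 and 3774. Such sums mainly follow the genes with the highest values, such as the macrophage marker Lyz2 (10.16 in M-PDK1KO and 10.18 in control mice after ablation). The median mean response was 2.14 for the macrophage and 1.92 for the fibroblast markers. Markers of satellite cells and regenerating fibers rose in 4 of 7 cases, and those of endothelial cells in 2 of 7. All markers of these 4 lists were above the median of all genes on at least 1 array. Of T cell markers, 2 of 4 rose, and of adipocyte markers, 2 of 5 fell. Only 1 T cell marker, Cd4, was above the median, so that the called Cd3g was below it on all arrays. Of 4 measured Schwann cell markers, 1 fell (Mbp). Among all genes 10.4% were called higher and 10.6% lower, and 18.2% and 19.1% of those above the median. The marker counts here and below were not tested against these shares. The keratin gene Krt10, a marker of epidermis, stood apart on 1 array, with 3.64 after ablation and 5.75 after sham surgery in M-PDK1KO mice, and 3.78 and 3.99 in control mice. The other measured epidermis markers, Krt14 and Lor, were below the median of all genes on all arrays. Krt14 had 2.56 and 2.84 in M-PDK1KO mice and 2.38 and 2.17 in control mice. Lor had 2.87 and 2.97 in M-PDK1KO mice and 2.37 and 2.35 in control mice. The part of these cell types in the rise or fall of any transporter gene was not tested.

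Glutamine and small neutral amino acids are carried by the exchangers of the SLC1 family. Slc1a4, which encodes ASCT1, an exchanger of alanine, serine and cysteine, had log2 values of 4.15 after ablation and 3.31 after sham surgery in M-PDK1KO mice, against 3.80 and 2.70 in control mice. It rose by 0.97 ± 0.13 (adjusted p = 0.0069). Slc1a5, which encodes the glutamine exchanger ASCT2, had 5.60 and 5.05 in M-PDK1KO mice and 5.39 and 4.81 in control mice. Its rise of 0.56 ± 0.11 (adjusted p = 0.0241) came from responses of 0.55 in M-PDK1KO and 0.58 in control mice. A second probe set with lower values gave responses of 0.57 in M-PDK1KO and 1.39 in control mice, with a mean of 0.98 ± 0.21 (adjusted p = 0.0319). The calls of Slc1a4 and Slc1a5 were lost without any one of 3 of the arrays and kept without the sham array of M-PDK1KO mice (1.28 for Slc1a4 and 0.68 for Slc1a5).

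Glutamate itself is carried by the other SLC1 proteins. Slc1a3 (GLAST) had values of 3.22 after ablation and 2.54 after sham surgery in M-PDK1KO mice, and of 2.99 and 2.40 in control mice. All of these lay below the median of all genes, and the rise of 0.63 ± 0.11 (adjusted p = 0.018) was not called without the control sham array (0.56, adjusted p = 0.0901) or the M-PDK1KO ablation array (0.52, adjusted p = 0.104). Slc1a1 (EAAT3, which also takes up cysteine) was not called. It had 3.79 and 4.66 in M-PDK1KO mice and 3.87 and 4.22 in control mice, with a mean response of -0.61 ± 0.16 (adjusted p = 0.054). It was called lower in 5 of 7 alternative settings with all arrays (adjusted p from 0.0217 to 0.047), and also without the control sham array (-0.84, adjusted p = 0.0221). Slc1a2, Slc1a6 and Slc1a7, which encode glutamate transporters of glia, neurons and retina, were below the median of all genes on all arrays and were not called.

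Cationic amino acids such as arginine and lysine enter through the CAT proteins of the SLC7 family, and among them only Slc7a1 was called. Slc7a1, which encodes CAT1, had log2 values of 4.51 after ablation and 3.34 after sham surgery in M-PDK1KO mice, and of 4.52 and 3.49 in control mice. The genotypes thus had nearly equal values after ablation, and the gene rose by 1.10 ± 0.12 (adjusted p = 0.00398). Slc7a2, which encodes CAT2, had 5.68 and 6.02 in M-PDK1KO mice and 5.59 and 5.92 in control mice. Both ablation arrays were below both sham arrays, but the mean response of -0.34 ± 0.11 did not pass the test (adjusted p = 0.103), except with arrays centred on their medians. Slc7a3, Slc7a4 and Slc7a14 lay below the median of all genes on every array.

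Several of these genes are known targets of ATF4, a transcription factor that is made when amino acids run short and that binds a composite element with C/EBP proteins. RefSeq promoter windows (GRCm38.p6) were found for 47 of the 64 members, with 66 start sites. They were searched on both strands from 200 bases before to 10 bases after the start for 4 motifs, whose matches did not overlap in the windows shown. The composite element was searched as TGATGNAA. The E-box, a site of basic helix-loop-helix factors, was searched as CACGTG. The element of AP-1, the dimer of Fos and Jun proteins, was searched as TGACTCA. The TATA box, at which some promoters are opened, was searched as TATAAA. The composite element was found at 4 of the 66 starts, of Slc1a4, Slc7a7, Slc7a11 and Slc6a21, and at 3% of all 32851 starts in the table. The E-box was found at 9, the AP-1 element at 6 and the TATA box at 4 of the 66, against 5.59%, 3.84% and 10.3% of all starts. Windows are shown for 3 genes that rose (Slc1a4, Slc7a1 and Slc3a2), for the 2 with the largest falls (Slc43a1 and Slc38a4) and for Slc7a11, with a match in capitals, at the start lying farthest upstream where a gene has several.
Slc1a4, chr11:20332704-20332913, minus strand: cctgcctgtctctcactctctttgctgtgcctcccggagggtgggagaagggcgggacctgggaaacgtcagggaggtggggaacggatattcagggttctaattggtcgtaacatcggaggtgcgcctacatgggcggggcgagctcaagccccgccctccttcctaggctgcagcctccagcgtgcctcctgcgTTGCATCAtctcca
Slc7a1, chr5:148399895-148400104, minus strand: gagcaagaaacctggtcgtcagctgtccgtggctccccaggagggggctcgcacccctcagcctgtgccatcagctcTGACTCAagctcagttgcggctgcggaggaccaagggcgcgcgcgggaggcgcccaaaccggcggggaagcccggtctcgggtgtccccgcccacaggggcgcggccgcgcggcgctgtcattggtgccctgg
Slc3a2, chr19:8713888-8714097, minus strand: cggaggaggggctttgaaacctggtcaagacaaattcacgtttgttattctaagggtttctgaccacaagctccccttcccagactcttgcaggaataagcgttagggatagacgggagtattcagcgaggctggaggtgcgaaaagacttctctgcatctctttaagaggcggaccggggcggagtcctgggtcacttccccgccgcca
Slc43a1, chr2:84840123-84840332, plus strand: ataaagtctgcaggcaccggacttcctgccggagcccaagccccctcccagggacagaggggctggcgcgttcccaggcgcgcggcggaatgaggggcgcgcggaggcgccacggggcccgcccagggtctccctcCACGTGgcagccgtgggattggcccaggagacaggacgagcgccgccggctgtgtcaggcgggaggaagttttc
Slc38a4, chr15:97055947-97056156, minus strand: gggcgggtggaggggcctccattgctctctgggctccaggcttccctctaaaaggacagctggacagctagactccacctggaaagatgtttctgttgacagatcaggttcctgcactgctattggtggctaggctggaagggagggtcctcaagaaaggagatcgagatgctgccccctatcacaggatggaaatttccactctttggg
Slc7a11, chr3:50443604-50443813, minus strand: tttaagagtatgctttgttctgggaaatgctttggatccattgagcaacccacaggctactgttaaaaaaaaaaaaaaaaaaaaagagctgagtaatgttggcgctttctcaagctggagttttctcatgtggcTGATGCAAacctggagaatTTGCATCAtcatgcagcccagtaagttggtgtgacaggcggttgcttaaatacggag

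Counted from the first transcribed base as position 1, with no position 0, Slc1a4 held the composite element on the opposite strand from -4 to 4. Slc7a11 held it at 2 places, from -66 to -59 and on the opposite strand from -47 to -40, yet its array values were low and alike in all conditions. Slc7a1 had an AP-1 element from -123 to -117 and Slc43a1 an E-box from -64 to -59. The other members with an E-box were not called: Slc1a6, Slc1a7, Slc36a1, Slc38a5, Slc38a7, Slc6a16, Slc6a3 and Slc7a14. Nor were the others with an AP-1 element: Slc3a1, Slc6a14, Slc6a17, Slc6a19os and Slc6a5. The TATA box was found for Slc1a3, Slc3a1, Slc7a15 and Slc7a1, in the last at a start that is not shown. In the windows of Slc3a2 and Slc38a4 none of these letters was found, which says nothing about binding elsewhere. No promoter window of Slc7a5, Slc38a1 or Slc1a5 was in the table.

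The 3 system A genes of the SLC38 family lie next to each other on chromosome 15, with no other protein-coding gene between them, and each had its own pattern. System A carriers take up alanine, glutamine and other small neutral amino acids together with sodium. Slc38a1 (SNAT1) had log2 values of 4.77 after ablation and 3.22 after sham surgery in M-PDK1KO mice, and of 4.48 and 3.09 in control mice. Its rise of 1.47 ± 0.12 (adjusted p = 0.002) was the largest among the members, at 2.92-fold in M-PDK1KO and 2.62-fold in control mice. Slc38a4 (SNAT4), an imprinted gene, had 7.89 after ablation and 9.12 after sham surgery in M-PDK1KO mice, and 7.59 and 8.84 in control mice. It fell to 0.426-fold in M-PDK1KO and 0.42-fold in control mice, with a mean response of -1.24 ± 0.11 (adjusted p = 0.00275). Slc38a2 (SNAT2), the system A gene that lies between them, had 8.64 and 8.99 in M-PDK1KO mice and 8.87 and 8.78 in control mice. Its ablation and sham arrays overlapped, and the mean response was -0.12 ± 0.15 (adjusted p = 0.649).

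**Figure D3:**
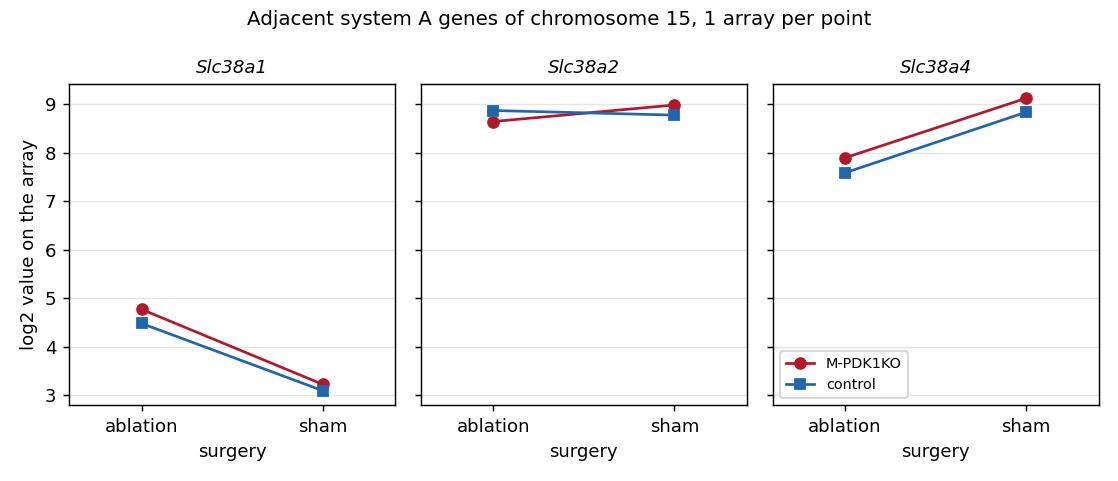
Log2 values of Slc38a1, Slc38a2 and Slc38a4 on the 4 arrays (vertical axis), with ablation left of sham and 1 array per point, lines joining the arrays of a genotype (red circles M-PDK1KO, blue squares control). Ablation arrays are higher for Slc38a1, lower for Slc38a4 and overlap with sham arrays for Slc38a2.

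Slc38a3 fell among the system N carriers, which move glutamine, asparagine and histidine. This gene, which encodes SNAT3, had log2 values of 7.01 after ablation and 8.01 after sham surgery in M-PDK1KO mice, and of 7.13 and 7.82 in control mice. The mean response was -0.84 ± 0.13 (adjusted p = 0.0116). Slc38a5, the other system N gene, was below the median of all genes on all arrays.

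Of the remaining SLC38 genes, 1 rose and 1 fell. Slc38a9 encodes SNAT9, a lysosomal protein that senses arginine for mTORC1. It had values of 4.60 and 5.18 in M-PDK1KO mice and 4.78 and 5.20 in control mice, and its fall of 0.50 ± 0.12 (a mean response of -0.50, adjusted p = 0.0386) was not called when any 1 array was left out (-0.60 to -0.41). Slc38a7, which encodes the lysosomal glutamine carrier SNAT7, had values between 4.76 and 4.97 on all arrays. Slc38a10 had 6.66 and 5.92 in M-PDK1KO mice and 6.56 and 6.13 in control mice and rose by 0.58 ± 0.13 (adjusted p = 0.0343). Its call held when the control sham array was left out and not without any other array (0.48 to 0.69 over all 4), and a second probe set with lower values gave 0.15 ± 0.11 (adjusted p = 0.467). Slc38a6 had a mean response of 0.43 ± 0.11 (adjusted p = 0.0538) and was called higher in 2 of the 7 alternative settings.

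Slc43a1 had the largest fall of the 64 genes. It encodes LAT3, which lets leucine and other large neutral amino acids pass without an exchange partner. Its log2 values were 4.44 after ablation and 6.02 after sham surgery in M-PDK1KO mice, and 4.33 and 5.64 in control mice. The mean response was -1.44 ± 0.13 (adjusted p = 0.0026), or 0.335-fold in M-PDK1KO and 0.404-fold in control mice. Slc7a5 and Slc43a1, both carriers of large neutral amino acids, thus changed in opposite directions. Slc43a2, which encodes the related LAT4, had 4.44 and 4.70 in M-PDK1KO mice and 4.61 and 4.00 in control mice. The genotypes responded in opposite directions, at -0.26 and 0.61, and the mean response was 0.18 ± 0.22 (adjusted p = 0.665). Slc43a3, a purine nucleobase carrier near Slc43a1 on chromosome 2, had a mean response of 0.04 ± 0.14 (adjusted p = 0.899).

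In the SLC6 family, the creatine carrier alone was called. Slc6a8, which loads muscle with creatine, had log2 values of 8.88 after ablation and 9.51 after sham surgery in M-PDK1KO mice, and of 8.76 and 9.50 in control mice. The sham arrays of the genotypes were nearly equal, and the mean response was -0.68 ± 0.12 (adjusted p = 0.015), with the call lost without the control ablation array (-0.62, adjusted p = 0.0517). Slc6a6, the taurine carrier, had 7.83 and 7.98 in M-PDK1KO mice and 7.83 and 7.95 in control mice, and its mean response of -0.13 ± 0.11 was not called (adjusted p = 0.506). Markers of fast and all fibers moved both ways, with 2 of 7 higher and 3 lower, and their summed linear values were 30992 in M-PDK1KO and 30708 in control mice after ablation, against 34277 and 34800. Of 5 markers of slow fibers, 3 rose and 1 fell, with sums of 324 in M-PDK1KO and 432 in control mice after ablation, against 192 and 149. These sums, too, mainly follow the genes with the highest values. The median mean response was -0.32 for the markers of fast and all fibers and 1.48 for those of slow fibers. The part of fiber content in the falls of Slc6a8, Slc38a3, Slc38a4 and Slc43a1 was not tested.

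No proton-coupled carrier was called with the settings used throughout. Slc36a4 had 7.20 and 6.78 in M-PDK1KO mice and 7.27 and 6.89 in control mice, with a mean response of 0.40 ± 0.11 (adjusted p = 0.0657). It was called higher in 5 of 7 alternative settings with all arrays (0.40 to 0.80, adjusted p from 0.0197 to 0.0487). A second probe set of this gene, with lower values, gave 1.21 ± 0.22 (adjusted p = 0.0184). Slc36a1, which encodes the lysosomal carrier PAT1, had a mean response of 0.19 ± 0.12 (adjusted p = 0.333).

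On every array, 36 members stayed at or below the median of all genes. Among them were the monoamine carriers Slc6a2, Slc6a3 and Slc6a4, for noradrenaline, dopamine and serotonin, the glycine carrier Slc6a5, the gut and kidney carrier Slc6a19 and the kidney light chains Slc7a9 and Slc7a13. Their values lay between 1.59 and 3.22, and Slc1a3 was the only one called. The mean responses of the 36 ranged from -0.23 to 0.63. At such values a difference may not be detectable on these arrays. Slc6a18 and Slc6a20a, described with the genotypes, were not called for ablation. Nor were the light chains and relatives Slc7a10, Slc7a12 and Slc7a15, the SLC6 genes Slc6a7, Slc6a11 to Slc6a17 and Slc6a20b, and Slc36a2, Slc36a3, Slc38a8 and Slc38a11. Slc6a13, a carrier of GABA and taurine, passed the median of all genes on at least 1 array, with 3.41 and 2.94 in M-PDK1KO mice and 3.26 and 3.17 in control mice (mean response 0.28 ± 0.14, limma adjusted p = 0.249).

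**Figure D4:**
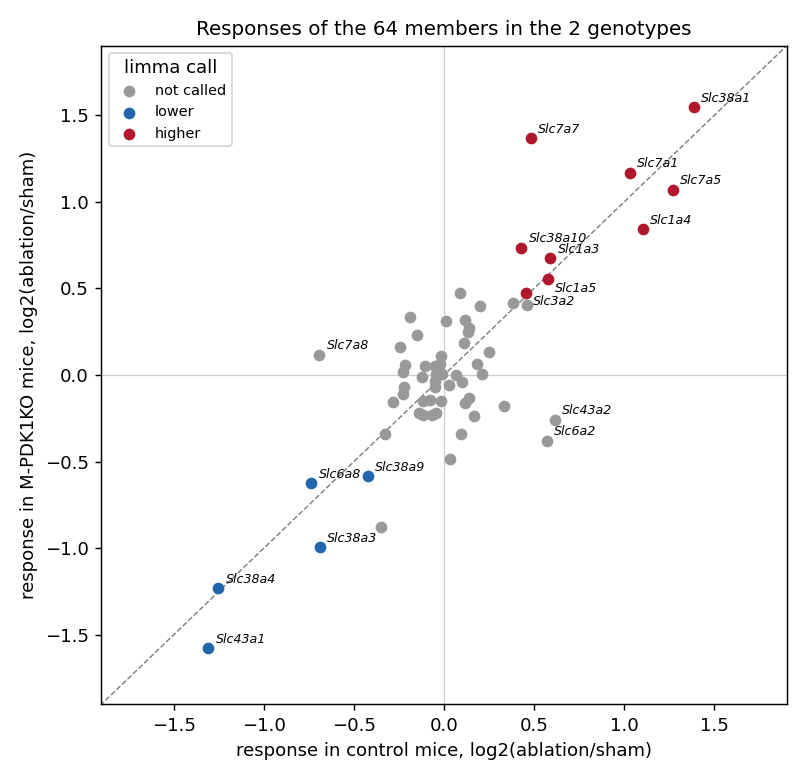
Response to ablation of the 64 members as log2(ablation/sham), in M-PDK1KO mice on the vertical and in control mice on the horizontal axis, with 1 point per gene and the line of equal responses dashed. All 14 called genes (red higher, blue lower) have responses of the same sign in both genotypes. Of the labelled grey points, Slc7a8 lies above the line and Slc43a2 and Slc6a2 below it.

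No member differed 2-fold between M-PDK1KO and control mice after ablation, where 0.14% of all genes did, or after sham surgery, where 0.162% did. No member had responses that differed 2-fold between the genotypes, against 0.762% of all genes. Over the 64 members, log2(M-PDK1KO/control) ran from -0.34 to 0.62 after ablation and from -0.73 to 0.70 after sham surgery, with SDs across genes of 0.21 and 0.25, against 0.23 and 0.24 over all genes. The genotype term of limma called no member after adjustment, and 4 (6.25%) had an unadjusted p under 0.05, against 5.45% of all genes. Since no gene at all passed, the deleted Pdpk1 included, this does not show that the genotypes were alike.

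Those 4 members were Slc1a4, Slc6a20a, Slc6a18 and Slc38a4, each with higher values in M-PDK1KO mice after both surgeries. Choosing by this p-value favours genes whose genotype difference is alike after both surgeries. Slc6a18, which had the largest difference after ablation (0.62), lay below the median of all genes on all arrays. Its values were 2.64 and 2.48 in M-PDK1KO mice and 2.02 and 2.26 in control mice after ablation and sham surgery. For Slc6a20a, an imino acid carrier, the values were 3.55 after both surgeries in M-PDK1KO mice and 3.12 after both in control mice. Slc38a4 was higher by 0.31 after ablation and 0.29 after sham surgery, and Slc1a4 by 0.36 and 0.62. Among the called genes, Slc7a7 had the responses farthest apart, at 1.37 in M-PDK1KO and 0.48 in control mice. Between genotypes, log2(M-PDK1KO/control) was 0.49 for the ablation arrays and -0.39 for the sham arrays. For Slc7a8 the responses were 0.12 and -0.69, and the genotypes differed by 0.08 for the ablation arrays and -0.73 for the sham arrays. These differences of responses rest on 1 array per condition and could not be tested.

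Related genes were described by 8 lists, of which 143 of 154 genes were measured. Most measured genes of every list were above the median of all genes on at least 1 array. Of all genes so high, 18.2% were called higher and 19.1% lower. The counts of the lists are read against these shares as well as the 10.4% and 10.6% of all genes. Of 24 measured genes of ATF4 and the integrated stress response, 6 rose and 7 fell. Chac1, which breaks down glutathione and is a target of ATF4, had log2 values of 4.28 after ablation and 6.36 after sham surgery in M-PDK1KO mice, and of 4.96 and 7.03 in control mice. It fell by 2.08 in each genotype (limma, adjusted p = 0.000824). Vldlr, a lipoprotein receptor, and Ddit4, an inhibitor of mTORC1, fell by 1.65 and 1.15, whereas Aldh18a1, an enzyme of proline synthesis, rose by 1.43. Asns, which makes asparagine, had a mean response of 0.66 (adjusted p = 0.0552). Atf4 itself, named here after its values were seen, had 6.88 and 7.39 in M-PDK1KO mice and 6.86 and 7.62 in control mice, with a mean response of -0.63 (adjusted p = 0.0238).

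Among 19 measured amino acid carriers outside these families, 5 rose and 4 fell. Slc16a10, which passes aromatic amino acids, had 5.92 and 7.59 in M-PDK1KO mice and 5.79 and 7.56 in control mice and fell by 1.72 (limma, adjusted p = 0.00126). Slc15a4, a lysosomal carrier of histidine and peptides, fell by 1.17. The mitochondrial carriers Slc25a12 (aspartate and glutamate) and Slc25a44 (branched-chain amino acids) fell by 1.01 and 1.12. The 5 that rose had mean responses of 1.27 (Slc15a3), 0.84 (Slc29a3), 0.72 (Sfxn1), 0.69 (Slc17a5) and 0.62 (Mfsd12). Ctns, which lets cystine out of lysosomes, had a mean response of 0.43 (adjusted p = 0.0537).

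Of 18 measured genes of branched-chain amino acid breakdown, 17 fell and 1 rose, with a median mean response of -1.02. Bckdhb, a subunit of the dehydrogenase that commits these amino acids to breakdown, fell by 1.59. Ppm1k, the phosphatase that activates it, fell to 5.42 after ablation, against 6.76 after sham surgery, in M-PDK1KO mice and to 5.23, against 6.70, in control mice. The later enzymes Aldh6a1 and Mmut fell by 1.47 and 1.22. The gene that rose was Bcat1, the cytosolic aminotransferase, with 4.17 and 3.14 in M-PDK1KO mice and 4.32 and 2.83 in control mice (mean response 1.26, limma adjusted p = 0.0053).

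Of 15 genes for glutamine, proline and arginine enzymes, none rose and 4 fell. These were Gpt2 (alanine aminotransferase) by 2.45, Glul (glutamine synthetase) by 1.08, Got1 (aspartate aminotransferase) by 0.72 and Oat (ornithine aminotransferase) by 0.47. Prodh, which starts proline breakdown, had a mean response of -0.44 (adjusted p = 0.0681), with -0.31 in M-PDK1KO and -0.56 in control mice. By RT-PCR the paper reported lower Prodh mRNA after ablation in both genotypes. In the list of taurine and creatine genes, 2 of 13 rose and 2 fell. Gamt, which makes creatine, rose by 1.04. The creatine kinase gene Ckb also rose (limma, adjusted p = 0.0162), whereas Cdo1, an enzyme of taurine synthesis, fell by 1.39 and the mitochondrial creatine kinase Ckmt2 by 0.72. Of 14 glutathione genes, 2 rose (the peroxidases Gpx8 by 2.21 and Gpx1 by 0.91) and 3 fell, among them Chac2 by 0.78 and Gclm, a subunit of the enzyme that joins cysteine to glutamate, by 0.57.

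Of 28 measured genes of amino acid sensing at the lysosome, not all of them sensors, 2 rose and 9 fell. Those that rose were Sesn3, by 0.55, and Seh1l, by 0.51. Rragd, a Rag GTPase, and Flcn, which acts on it, fell by 1.14 and 1.03, and Wdr24 and Kptn, of complexes that regulate the Rag GTPases, by 0.71 and 0.66. Sesn2, a leucine sensor, had a mean response of 0.55 (adjusted p = 0.0704). Of 13 genes for the trafficking and turnover of membrane carriers, none rose and 6 fell. Arrdc2, an adaptor of ubiquitin ligases, had 4.38 and 7.32 in M-PDK1KO mice and 4.39 and 8.27 in control mice and fell by 3.41 (limma, adjusted p = 0.00139). The ligase Wwp1, the arrestin-like Txnip and the kinase Sgk1 fell by 1.33, 0.94 and 0.91, and the ligase Nedd4l had a mean response of -0.48 (adjusted p = 0.0714).

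**Figure D5:**
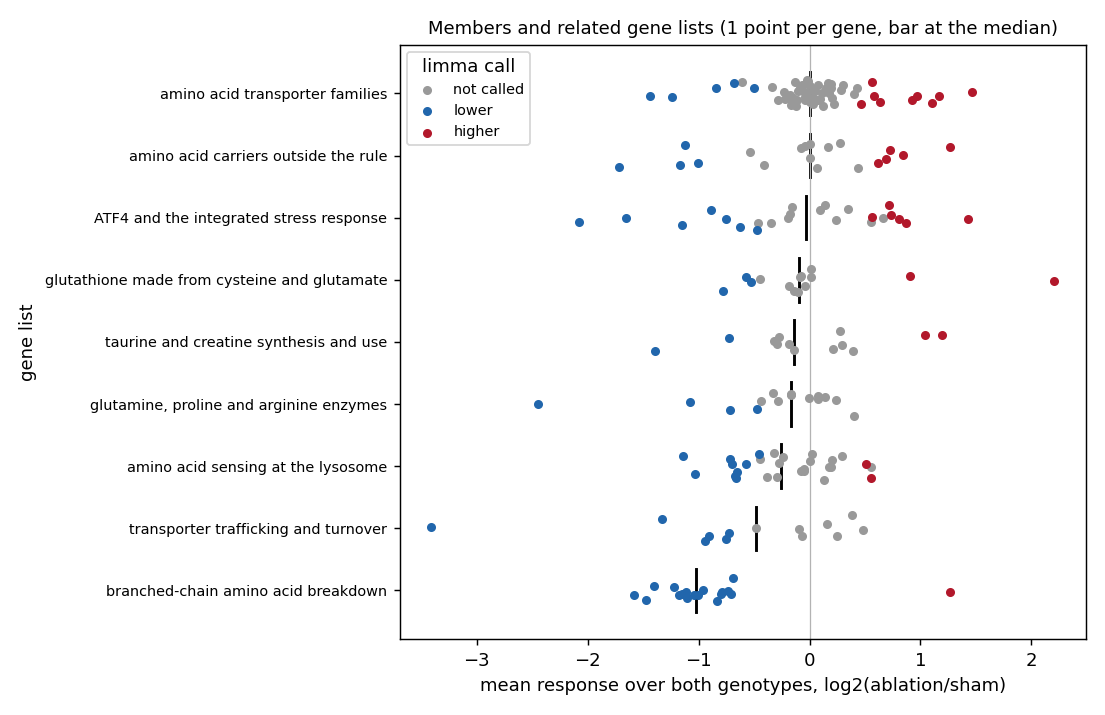
Mean response over both genotypes, as log2(ablation/sham), of the 64 members and of the measured genes of the 8 related lists, with 1 point per gene and a bar at the median of each list. Red, blue and grey stand for called higher, called lower and not called, and the vertical position within a row has no meaning. The median is 0.00 for the members and -1.02 for branched-chain amino acid breakdown.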

How the data were processed

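RNA of plantaris muscle was hybridised to 4 Affymetrix Mouse Gene 2.0 ST arrays, 1 for each genotype and surgery. The authors deposited 1 log2 value per probe set and array, made with Transcriptome Viewer; background correction, normalization and genome build are not given in the sources used here. The log2 scale was read from the range of the values (0.70 to 13.2). Of 41345 probe sets, 23521 named exactly 1 gene, 1820 named several and 16004 none; the probe set with the highest mean was kept for each of 22180 genes. Effects of genotype and ablation were fitted with limma 3.58.1 in R 4.3.3 (lmFit and eBayes, 1 residual and 4.22 prior degrees of freedom), with Benjamini-Hochberg adjustment over all genes, after the fit was tested on simulated data. Nothing in the labels says that arrays are separate animals of a group. Named were the members called, those past 2-fold in either genotype, the highest of each family and the partners of SLC3 chains, and of each list up to 4 genes with the smallest adjusted p and up to 2 not called; other members were added for their role after their values were seen. In the lists of other amino acid carriers and of amino acid sensing, all genes that rose were also named. Members and gene lists were chosen with earlier results of these data known. Alternatives changed the scaling, low-value filter, probe set rule, model, threshold and arrays included. Promoters came from RefSeq.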

Additional observations from a re-analysis of the deposited data

Results flagged for a closer look

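In 2 members the response to ablation ran in opposite directions in the genotypes, by at least 0.25 on the log2 scale in each. For Slc43a2, which encodes the leucine carrier LAT4, the response was -0.26 in M-PDK1KO mice and 0.61 in control mice, a difference of -0.87. For Slc6a2, the noradrenaline carrier, it was -0.38 in M-PDK1KO mice and 0.57 in control mice, a difference of -0.95, with values below the median of all genes on all arrays. With 1 array per condition these differences were not tested. Over all 64 members, 23 had responses of opposite sign, and these 2 were the only ones at or past 0.25 in both genotypes. The shares of all genes with such responses were not counted, so these counts cannot be read as particular to the members.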

How the results depend on the processing

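Leaving out 1 array at a time gave 3 to 6 members higher and 3 to 5 lower, against 9 and 5 with all arrays. An adjusted p under 0.01 left 4 higher and 2 lower. At a fold limit of 1.5 instead of 2, 7 members were higher and 5 lower in M-PDK1KO mice. In control mice, 6 were higher and 5 lower at this limit. The shares of all genes at these limits were not counted, so the counts show only how the member calls depend on the limit. Of 97 comparisons of a called member with another setting that kept all arrays, 94 kept the call and 3 lost it: Slc3a2 with arrays centred on their medians and with ablation as the only term, and Slc38a10 with the mean of its probe sets (0.36, adjusted p = 0.0971). In the same 7 refits, other members gained a call: Slc36a4 higher in 5, Slc38a6 higher in 2, Slc1a1 lower in 5 and Slc7a2 lower in 1, so that 8 to 10 were higher and 5 to 7 lower. Without 1 array, 34 of 56 kept it and 22 lost it, and no direction turned. Slc1a3 is removed by the filter on low values. Centring put the median mean response of all genes at -0.11, against -0.02. No paired analysis was possible because each condition has 1 array. Low values and the single array per condition limit what can be detected.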
